A study of Arabidopsis thaliana with 12 samples.

Results

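Wild-type Arabidopsis thaliana seedlings of the accession Col-0 raised in light were compared with wild-type seedlings raised in darkness. The comparison used 6 of the series' 12 arrays, 3 of light-grown and 3 of dark-grown wild type. It covered all 13513 of 22746 non-control probe sets that name 1 gene, and these stand for 13356 genes. Another 503 probe sets name several genes and 8730 are unnamed here.

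RNA of whole seedlings was measured on Affymetrix ATH1 arrays, which read a transcript with a group of short probes called a probe set. Per the labels, the medium of both groups held 5 µM β-estradiol and 0.5% sucrose, and the temperature was 22 °C. β-Estradiol is the inducer of the series' other line, amiR-SNF4, which carries an artificial microRNA against SNF4, a subunit of the energy-sensing kinase SnRK1. The inducer was thus present in wild type too, and no wild-type seedlings without it were analysed here. The labels of both groups give 8 h of light and 16 h of dark a day, although the titles call 1 group dark-grown. For both groups they also give an age of 5 days and harvest 4 h after the day's light began. For light-grown seedlings only, the labels add 7 days after sowing. If the groups differed in age, age and growth condition cannot be told apart in any value below. The labels put the light intensity at 120, against 400 in the series text. The titles call the 3 arrays of a group biological replicates without naming separate cultures, and the spread that p-values rest on is therefore that of these samples and may be technical.

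A seedling that germinates in darkness becomes etiolated. It lengthens its hypocotyl, keeps a closed apical hook and folded cotyledons, lives on seed reserves and holds etioplasts with protochlorophyllide in place of green chloroplasts. In light, photoreceptors of the phytochrome and cryptochrome families end this programme. Chlorophyll and the thylakoid membranes are then built, the cotyledons open and expand, and elongation of the hypocotyl is restrained. The titles name light-grown and dark-grown seedlings, and each group was sampled at 1 time. The arrays therefore do not follow the switch between the 2 conditions.

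The preparation of the arrays coincided with the growth condition. Poly-A control transcripts (dap, lys, phe and thr), bacterial RNAs that a laboratory adds to a sample before labelling, gave a geometric mean of 93.9 to 226 on the 3 light arrays, against 8298 to 11737 on the 3 dark arrays. Their signal was 77.98-fold higher on the dark arrays in wild type and 83.35-fold higher in amiR-SNF4. They made up 0.0208% to 0.0689% of the summed intensity on light arrays, against 2.50% to 3.29% on dark arrays. Hybridization controls, added after labelling, gave 596 to 781 on light arrays, against 820 to 1031 on dark arrays. No label names a batch, and every light array differed from every dark array in this way. Growth condition and array preparation therefore cannot be told apart in any value below.

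**Figure D1:**
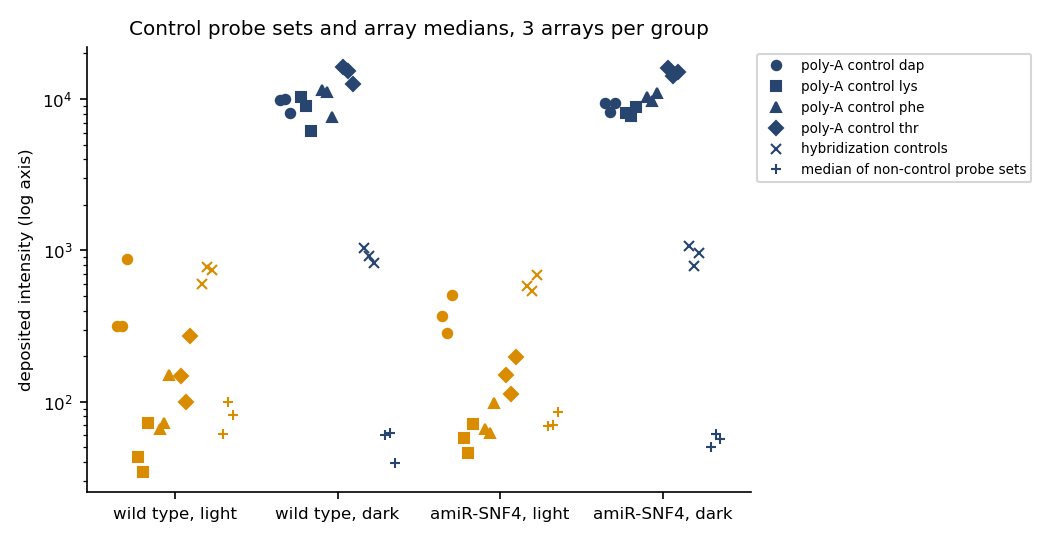
Deposited intensity (log axis) of the poly-A controls, the hybridization controls and the array median on each of the 12 arrays, with light arrays in orange and dark arrays in blue. The poly-A controls lie far apart between growth conditions in both genotypes: their mean was 93.9 to 226 on wild-type light arrays, against 8298 to 11737 on wild-type dark arrays.

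Other measures of the arrays moved less with growth condition. Array medians of the deposited intensities were 61.2, 99.5 and 82.4 on the light arrays, against 60.6, 62.5 and 39.4 on the dark arrays. The 3′ over 5′ signal ratio of an actin control, a measure of RNA integrity, was 3.03 to 3.34 in light, against 2.26 to 3.26 in darkness, and these ranges overlap. That of a ubiquitin control was 1.68 to 2.11 in light, against 1.51 to 1.63 in darkness, with no overlap. The part of RNA integrity in the differences was not tested.

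Of the 13513 probe sets, 4675 (34.6%) differed between light-grown and dark-grown wild type at an adjusted p under 0.05, and these are termed called. Higher in light were 2470 (18.3%) and lower 2205 (16.3%). At least 2-fold were 1863 (13.8%), of which 1026 (7.59%) were higher and 837 (6.19%) lower. The 3 light values did not overlap with the 3 dark values at 6201 probe sets (45.9%). Changes of at least 4-fold were found for 126 probe sets higher and 154 lower, and of at least 16-fold for 5 higher and 12 lower. Values are given as intensities after quantile normalization. Differences are light minus dark on the log2(intensity + 16) scale with standard errors of limma's fit (3 arrays per group), p-values are adjusted by the Benjamini-Hochberg method, and the added 16 understates changes of dim genes. Of the variance among the 6 arrays, 74.9% lay on the first principal component.

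The split into higher and lower rested on the scaling. Quantile normalization sets the median difference of all genes to about 0, and 52.8% of the calls were then higher in light. Without normalization the median difference was 0.27 and 85.5% of 4292 calls were higher. With arrays scaled to the hybridization controls it was 0.52 and 93.5% of 6727 calls were higher. A rise or fall below is therefore relative to the other genes of the array. Scaling to the hybridization controls also rests on controls that themselves differed 1.31-fold between the conditions. As whole seedlings were measured, fewer cells of a type and less RNA per cell cannot be told apart.

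Genes of the seed reserve list, which holds seed proteins and enzymes of oil mobilisation, were lower in light-grown seedlings. ICL (AT3G21720), isocitrate lyase of the glyoxylate cycle that turns stored oil into sugar, had intensities of 8.49, 2.46 and 45.7 in light-grown seedlings, against 1597, 2069 and 2986 in dark-grown seedlings. Of the light values 2 were dim, taken here as under 32, and the dark values were bright on all 3 arrays, and ICL fell by 6.15 ± 0.37 on the log2 scale (adjusted p = 1.95e-07) in light, the largest fall among the tested probe sets. PAP85 (AT3G22640), a seed storage protein of the vicilin type, stood at 13.2, 11.96 and 24.9 on the light arrays, against 1500.3, 616 and 1740.5 on the dark arrays. M17 (AT2G41260), a late embryogenesis abundant protein, stood at 0.80, 0.36 and 19.8 on the light arrays, against 816, 367 and 436 on the dark arrays. The groups did not overlap for either gene, although the second dark array was the lowest of its group for both. They fell by 5.21 ± 0.56 on the log2 scale (adjusted p = 1.53e-05) and by 4.61 ± 0.40 on the log2 scale (adjusted p = 2.73e-06). SDP1 (AT5G04040), the lipase that starts oil breakdown, fell by 1.39 ± 0.19 on the log2 scale (adjusted p = 0.000113). All 4 measured members of the seed reserve list were thus lower and none higher, with a median difference of -4.91, where 16.3% of all probe sets were lower. The light-side signals of ICL, PAP85 and M17 lay near the level set by the added 16, so these falls are understated.

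Genes that respond to darkness and carbon starvation were lower in light as well. Several of their products break down branched-chain amino acids and pass the electrons to the mitochondrial respiratory chain, an alternative fuel when sugar is short. IVD (AT3G45300), isovaleryl-CoA dehydrogenase of leucine breakdown, had intensities of 369, 312 and 358 in light-grown seedlings, against 1808, 1762 and 2140.2 in dark-grown seedlings. MCCA (AT1G03090), the next enzyme's subunit, stood at 801, 605 and 545 on the light arrays, against 2412, 3184 and 3519 on the dark arrays. The light arrays lay below the dark arrays for both. IVD fell by 2.40 ± 0.16 on the log2 scale (adjusted p = 3.83e-07) and MCCA fell by 2.197 ± 0.23 on the log2 scale (adjusted p = 1.06e-05). MCCB (AT4G34030), the other subunit of methylcrotonyl-CoA carboxylase, fell by 1.51 ± 0.17 on the log2 scale (adjusted p = 2.37e-05) and ETFQO (AT2G43400), the oxidoreductase that hands the electrons to ubiquinone, by 1.33 ± 0.21 on the log2 scale (adjusted p = 0.000262). AKINBETA1 (AT5G21170), a regulatory subunit of SnRK1, stood at 647, 657 and 613 on the light arrays, against 1898, 2042 and 2058 on the dark arrays, and it fell by 1.62 ± 0.17 on the log2 scale (adjusted p = 1.29e-05). D2HGDH (AT4G36400), a dehydrogenase of lysine breakdown, had a difference of -0.79 and BZIP53 (AT3G62420), a transcription factor of low-energy responses, of -0.47. Without normalization D2HGDH lay at -0.25 and BZIP53 at 0.11, and with hybridization control scaling at 0.11 and 0.49. Neither was called under those scalings. With quantile normalization all 7 measured members of this list were called lower, with a median of -1.51, where 16.3% of all probe sets were lower. Without normalization 5 of the 7 were called lower, and with hybridization control scaling 3 were, at a median of -0.59, and AKINBETA1 was then not called.

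The nuclear genes of the photosystems and of electron transport were higher in light. PSAN (AT5G64040), a lumenal subunit of photosystem I that takes part in docking plastocyanin, had intensities of 4203, 4065 and 3474 in light-grown seedlings, against 1330.4, 1471 and 1130.0 in dark-grown seedlings. PSAE-1 (AT4G28750), a stromal subunit near the ferredoxin site, stood at 4661, 5589 and 5351 on the light arrays, against 1894, 2925 and 1698 on the dark arrays. AT4G01150, which the gene table also names CURT1A and which bends the edges of thylakoid stacks, stood at 4943, 4729 and 4525 on the light arrays, against 1524, 2237 and 1597 on the dark arrays. Every light value lay above every dark value for these genes, and even the dark signals were well above the dim range. The differences were 1.57 ± 0.20 (adjusted p = 6.31e-05) for PSAN, 1.29 ± 0.21 (adjusted p = 0.00034) for PSAE-1 and 1.42 ± 0.26 (adjusted p = 0.000862) for CURT1A. The ATP synthase gamma subunit ATPC1 (1.02) and the photosystem II proteins PSBY (1.14), PSBW (0.82) and PSB27 (0.72) were also called higher. All 7 measured members of the list were called higher, against 18.3% of all probe sets, and their median was 1.14.

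Among the few antenna genes measured, 1 went the other way. The light-harvesting complexes of photosystem II gather light for the reaction centre, and 3 antenna genes, all for the minor antenna protein CP29, were measured. LHCB4.2 (AT3G08940) had intensities of 869, 775 and 714 in light-grown seedlings, against 2729, 3855 and 3451 in dark-grown seedlings. All light values lay below all dark values, and the gene fell by 2.06 ± 0.23 on the log2 scale (adjusted p = 1.85e-05). LHCB4.1 had a difference of 0.40 (adjusted p = 0.239) and LHCB4.3 of -0.21 (adjusted p = 0.251). None of the 3 was called higher in light with quantile normalization. They were the only listed antenna genes among the probe sets named here, and 8730 probe sets were unnamed. These 3 genes therefore do not speak for the other antenna genes. With hybridization control scaling LHCB4.2 was still lower, whereas the other 2 were called higher.

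The Calvin cycle fixes carbon dioxide, and 4 of 7 measured genes of this cycle and of photorespiration were called higher, against 18.3% of all probe sets. SBPASE (AT3G55800), sedoheptulose-bisphosphatase of the regeneration phase, had intensities of 2374, 2427 and 2313 in light-grown seedlings, against 339.6, 615 and 622 in dark-grown seedlings. RCA (AT2G39730), rubisco activase, stood at 6218, 6218 and 6816 on the light arrays, against 1522, 2096 and 2344 on the dark arrays. The lowest light value lay far above the highest dark value for both genes, while the dark arrays of SBPASE spread more widely than its light arrays. The differences were 2.19 ± 0.22 (adjusted p = 1.05e-05) for SBPASE and 1.70 ± 0.19 (adjusted p = 1.87e-05) for RCA. HPR (AT1G68010), the peroxisomal hydroxypyruvate reductase of photorespiration, was called higher by 0.70. AT1G32470, placed in the list by its locus code alone, was higher by 1.64, and AT1G80380 was called lower at -0.54 with quantile normalization, but stood at 0.07 without normalization and at 0.45 with hybridization control scaling, where it was not called. PRK, the phosphoribulokinase that makes the acceptor of carbon dioxide, had 0.36 (adjusted p = 0.328), and AT1G11860 had 0.52 (adjusted p = 0.0791). The list held 1 called fall beside the 4 rises, with a median of 0.70. Without normalization and with hybridization control scaling 6 were called higher, PRK and AT1G11860 among them, and none lower.

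Genes of chlorophyll synthesis were called in both directions. Of the 9 measured genes of this list 5 were called higher and 2 lower, with a median of 0.96. The shares of all probe sets were 18.3% higher and 16.3% lower. GSA1 (AT5G63570), which makes the precursor 5-aminolevulinate, had intensities of 778, 569 and 527 in light-grown seedlings, against 234, 241 and 257 in dark-grown seedlings. HEMB1 (AT1G69740), the next enzyme, which joins 5-aminolevulinate to porphobilinogen, stood at 1146, 1226 and 1168 on the light arrays, against 493, 636 and 679 on the dark arrays. HEME2 (AT2G40490), uroporphyrinogen decarboxylase, stood at 777, 947 and 904 on the light arrays, against 279.6, 373 and 417 on the dark arrays. The groups did not overlap for any of the 3 genes, and the differences were 1.28 ± 0.17 (adjusted p = 7.05e-05) for GSA1, 0.96 ± 0.14 (adjusted p = 0.000161) for HEMB1 and 1.27 ± 0.15 (adjusted p = 3.29e-05) for HEME2. HEME1, the second uroporphyrinogen decarboxylase gene, was higher by 1.04, and CHLI2, a subunit of the magnesium chelatase that commits porphyrin to chlorophyll, by 1.66. PORB (AT4G27440), a protochlorophyllide oxidoreductase that performs the light-requiring step, stood at 724, 778 and 719 on the light arrays, against 1802, 3070.1 and 3749.6 on the dark arrays. AT1G74470, the geranylgeranyl reductase that makes the phytol tail, stood at 1751, 1595 and 1672 on the light arrays, against 2861, 4147 and 4561 on the dark arrays. Both were lower on every light array, and they fell by 1.87 ± 0.26 on the log2 scale (adjusted p = 0.000131) and by 1.17 ± 0.21 on the log2 scale (adjusted p = 0.000801). The fall of AT1G74470 was called neither without normalization nor when scaled to hybridization controls. CHLM, a methyltransferase between these steps, had -0.46 (adjusted p = 0.0936), HEMA2, a glutamyl-tRNA reductase, 0.23 (adjusted p = 0.331), and LYC, the lycopene cyclase of carotenoid synthesis, -0.15 (adjusted p = 0.463), while LYC was called higher by 0.78 with hybridization control scaling.

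**Figure D2:**
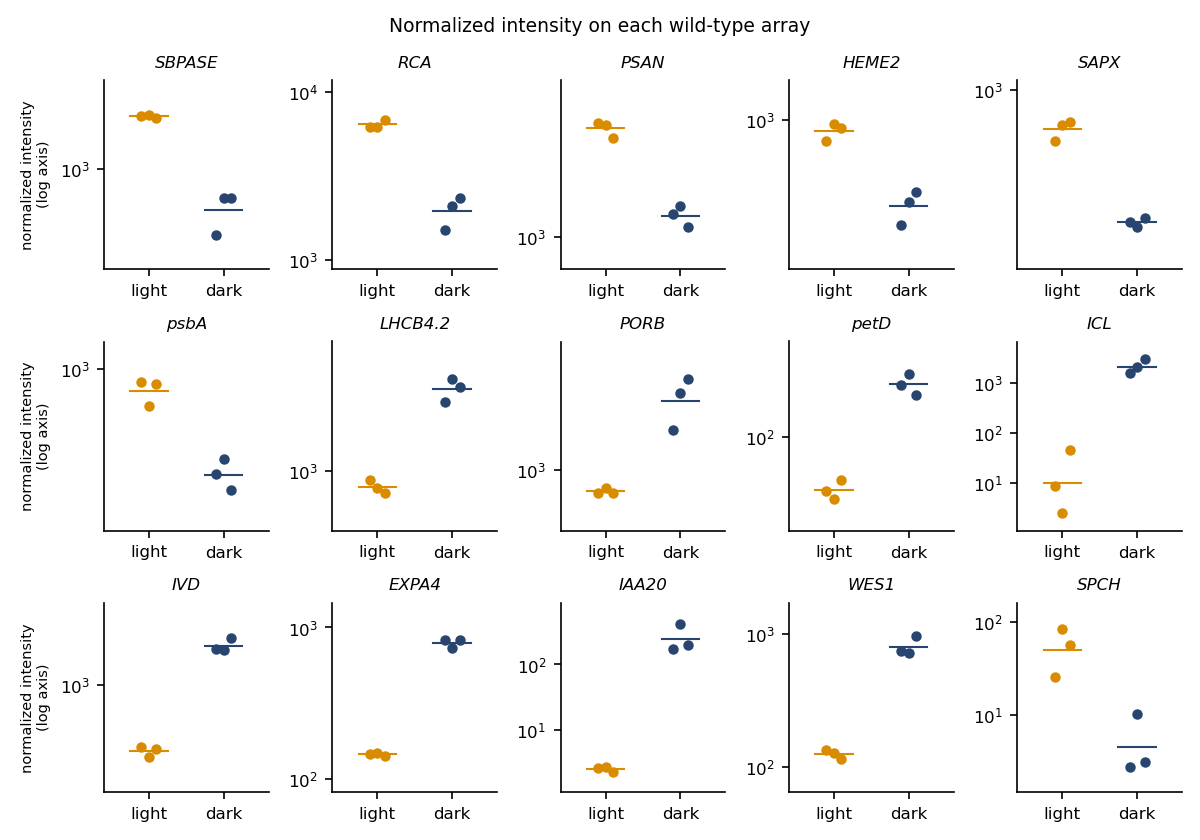
Normalized intensity (log axis) of 15 named genes on each wild-type array, with the 3 light arrays left in orange, the 3 dark arrays right in blue and a bar at the geometric mean. SBPASE lay at 2313 to 2427 in light, against 339.6 to 622 in darkness, whereas LHCB4.2 lay at 714 to 869 in light, against 2729 to 3855 in darkness.

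Thylakoid lumen proteins, subunits of the NDH complex that cycles electrons around photosystem I, and assembly factors of the photosystems formed the largest nuclear list of chloroplast genes. The list was added later, with earlier results of these data known, so its counts stand as description. Of its 32 measured members 29 were called higher and 1 lower, with a median of 1.29. Of all probe sets 18.3% were higher and 16.3% lower. The nuclear NDH subunits NdhN and NdhL were higher by 2.25 and 2.21, whereas NdhS had -0.28 (adjusted p = 0.509). HCF101 (AT3G24430), which assembles iron-sulphur clusters for photosystem I, had intensities of 463, 490.1 and 388 in light-grown seedlings, against 125, 139.7 and 123 in dark-grown seedlings, a difference of 1.67 ± 0.14 (adjusted p = 2.29e-06). Its light and dark values did not overlap. CCB3, which attaches heme to cytochrome b6, was higher by 1.88, and the photosystem II assembly factors LPA2, PAM68 and LPA1 by 1.88, 1.03 and 0.55. The organelle RNA-editing or assembly proteins CRR22, CRR42, CRR41 and CRR21 were higher by 1.63, 1.63, 1.56 and 0.59, and CRR28 had 0.27 (adjusted p = 0.468). Among loci that the gene table gives by code only, AT4G02530 stood at 1849, 2073 and 1725 on the light arrays, against 283, 423 and 297 on the dark arrays and AT1G12250 stood at 495, 497 and 387 on the light arrays, against 84.5, 105 and 76.2 on the dark arrays. Both sets of light values lay well above the dark values, with differences of 2.46 ± 0.17 (adjusted p = 7.35e-07) for AT4G02530 and 2.19 ± 0.16 (adjusted p = 1.03e-06) for AT1G12250. The 1 member called lower was AT4G19830 (-0.63), which was not called without normalization, lay at 0.20 with hybridization control scaling, and lost its call without the third light array (-0.52) or the first dark array (-0.51).

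Ribosomes of the plastid translate the plastid's own messages, and nuclear genes encode most of their proteins. Of 10 measured nuclear loci that the list, also added later, placed there by locus code, 7 were called higher and none lower. Their median was 0.93, and 18.3% of all probe sets were higher. AT4G17560 had intensities of 1301, 1351 and 1166 in light-grown seedlings, against 369.8, 515 and 408 in dark-grown seedlings. AT3G13120 stood at 2813, 2861 and 2182 on the light arrays, against 655, 1163 and 992 on the dark arrays. Light values exceeded dark values on every array, with differences of 1.54 ± 0.18 (adjusted p = 2.51e-05) for AT4G17560 and 1.496 ± 0.24 (adjusted p = 0.000363) for AT3G13120. The members that were not called were AT5G24490 (0.62), AT2G43030 (0.37) and AT5G65220 (0.01).

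**Figure D3:**
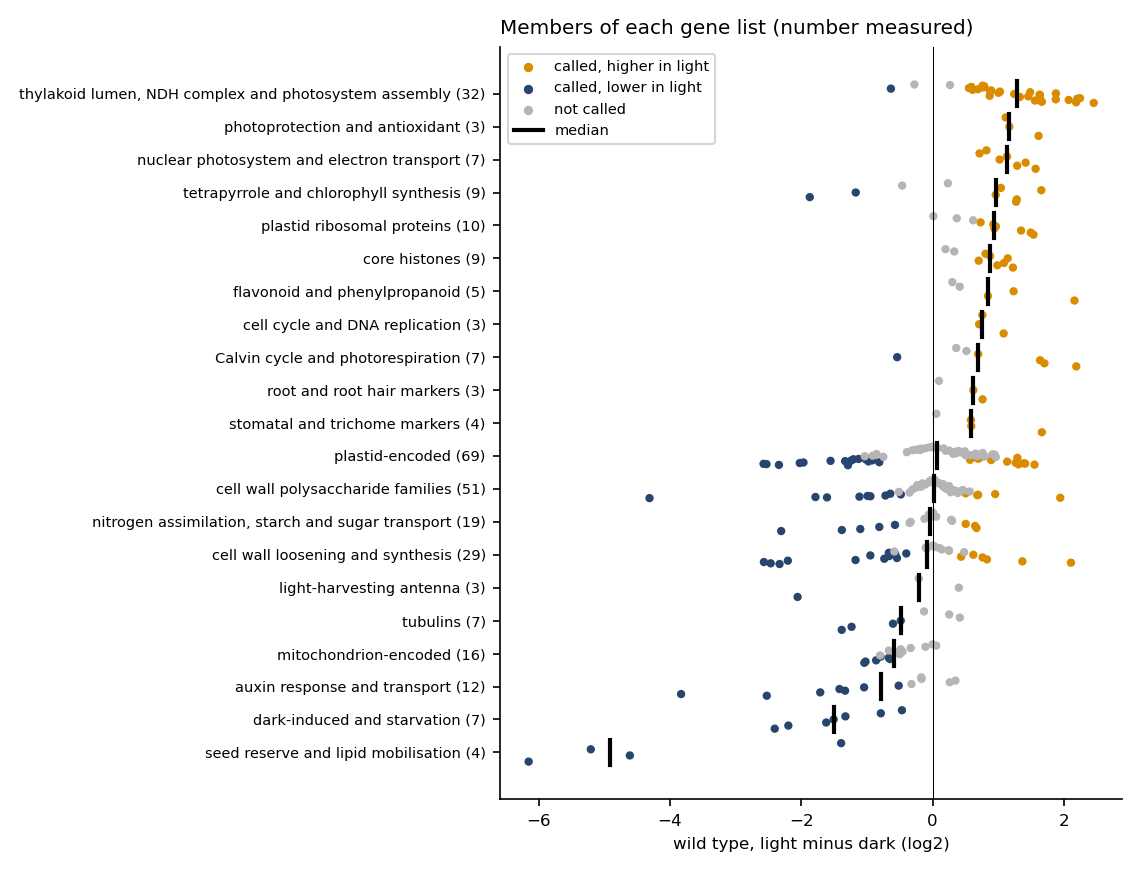
Light minus dark difference (log2, horizontal axis) of every measured member of the gene lists with at least 3 members, 1 point per gene, with called genes in orange (higher in light) or blue (lower) and a black bar at the list median. The later list of auxin synthesis and response, which shares members with the auxin list shown, is left out. The seed reserve list has its median at -4.91 and the thylakoid list at 1.29, against -0.01 for all genes.

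Genes encoded by the plastid itself were called in both directions. Whether the labelling reads plastid and mitochondrial transcripts as it reads nuclear ones was not tested. The poly-A controls, added before labelling, differed between the growth conditions, so the organelle signals below carry that limit. Of 69 measured plastid-encoded genes 13 were called higher and 17 lower, with a median of 0.07 under quantile normalization, where 18.3% of all probe sets were higher and 16.3% lower. The share called higher was thus near that of all probe sets. The split rested on the scaling, with 38 higher and 3 lower under hybridization control scaling and 27 higher and 4 lower without normalization. The D1 reaction centre protein of photosystem II, psbA, had intensities of 844, 608 and 818 in light-grown seedlings, against 246, 301 and 197 in dark-grown seedlings. The ribosomal protein gene rpl33 stood at 2538, 2031 and 3062 on the light arrays, against 749, 1201 and 1117 on the dark arrays, and rpl16 stood at 1223, 1246 and 1337 on the light arrays, against 389.6, 592 and 440.2 on the dark arrays. All 3 rose without overlap, by 1.55 ± 0.25 (adjusted p = 0.00036) for psbA, 1.31 ± 0.21 (adjusted p = 0.00038) for rpl33 and 1.41 ± 0.28 (adjusted p = 0.00163) for rpl16. Other photosystem II genes called higher were psbI (1.39), psbC (1.296), psbK (1.14) and psbF (0.57), while psbB, the CP47 antenna of the core, was lower (-0.98). The large subunit of rubisco, rbcL, was called lower (-0.92), but lay at 0.00 with hybridization control scaling.

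Some plastid genes that neighbour each other shared a direction, a pattern noticed after the values were seen and not tested. In the gene order of the TAIR10.1 table the 8 genes from ndhD to rps15 follow each other without a gap, and all 8 were called lower, at differences of -2.58 to -0.81 under quantile normalization. Without normalization 2 of the 8 were called, psaC and rps15, and with hybridization control scaling rps15 alone was, while ndhI then lay at 0.15. The 8 genes were ndhD, psaC, ndhE, ndhG, ndhI, ndhA, ndhH and rps15. The psaC product carries the last iron-sulphur clusters of photosystem I, and the ndh products are plastid subunits of the NDH complex. Of 10 measured plastid ndh genes 7 were called lower and none higher, at a median of -1.03, which is opposite to the nuclear subunits NdhN and NdhL. That median was -0.52 without normalization and -0.17 with hybridization control scaling. ndhA had intensities of 963, 835 and 1105 in light-grown seedlings, against 2077, 2465 and 2609 in dark-grown seedlings, and it fell by 1.29 ± 0.16 on the log2 scale (adjusted p = 4.36e-05), a call that was lost without normalization and with hybridization control scaling. ndhF stood at 51.2, 26.0 and 111 on the light arrays, against 509, 527 and 226 on the dark arrays, and petD, a subunit of the cytochrome b6f complex, stood at 37.1, 32.3 and 45.8 on the light arrays, against 255, 314 and 214 on the dark arrays. The dark values were higher throughout, and the falls were 2.53 ± 0.45 on the log2 scale (adjusted p = 0.000758) for ndhF and 2.34 ± 0.30 on the log2 scale (adjusted p = 5.25e-05) for petD. petB, which directly precedes petD, was called higher (0.72). The 3 neighbours psaJ, rpl33 and rps18 were all called higher, as were the neighbours psbK and psbI. Neighbouring plastid genes are transcribed together in part, so their values are not independent.

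**Figure D4:**
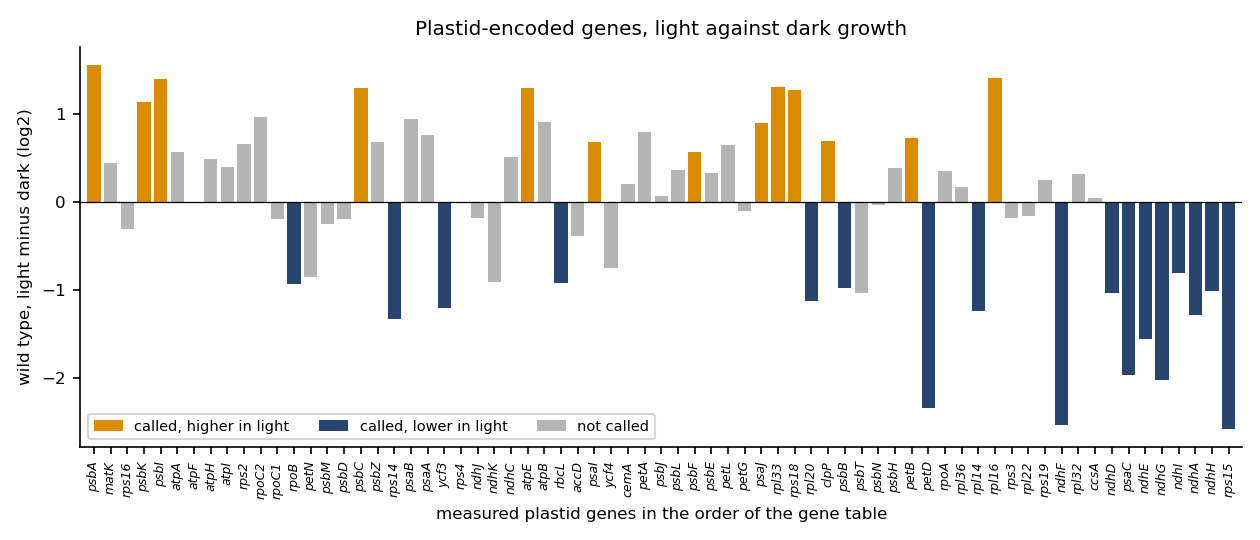
Light minus dark difference (log2, vertical axis) of the 69 measured plastid-encoded genes in wild type, in the order of the gene table along the plastid genome, with called genes in orange (higher in light) or blue (lower). The 8 genes at the right end, from ndhD to rps15, were all called lower under quantile normalization, between -2.58 and -0.81, of which 2 were called without normalization and 1 with hybridization control scaling.

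Mitochondrion-encoded genes tended to lower signals in light. Of 16 measured genes 6 were called lower and none higher, at a median of -0.59, where 16.3% of all probe sets were lower. Without normalization 1 was called lower and none higher, at a median of -0.29. With hybridization control scaling the median was -0.04, and none was called lower and 1 higher. cox1, a subunit of cytochrome c oxidase, had intensities of 48.7, 38.8 and 61.2 in light-grown seedlings, against 131, 126 and 93.9 in dark-grown seedlings. nad4L, a subunit of complex I, stood at 21.4, 13.1 and 26.3 on the light arrays, against 65.5, 59.5 and 48.9 on the dark arrays. The groups did not overlap for either, and they fell by 1.02 ± 0.18 on the log2 scale (adjusted p = 0.000801) and by 1.04 ± 0.18 on the log2 scale (adjusted p = 0.00066), and neither fall was called with hybridization control scaling. The fall of cox1 was not called without normalization either. ccb382, named for cytochrome c synthesis, had a difference of -0.86 ± 0.23 (adjusted p = 0.00976), but was not called without normalization and lay at 0.07 with hybridization control scaling.

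Antioxidant enzymes of the chloroplast rose in light. They remove the peroxide formed when photosynthetic electrons reach oxygen. SAPX (AT4G08390), the stromal ascorbate peroxidase, had intensities of 529, 645 and 668 in light-grown seedlings, against 190.0, 177 and 199 in dark-grown seedlings. TAPX (AT1G77490), its thylakoid counterpart, stood at 381, 391 and 340.4 on the light arrays, against 117, 197 and 163 on the dark arrays. Neither gene overlapped between groups, and they rose by 1.62 ± 0.17 on the log2 scale (adjusted p = 1.14e-05) and by 1.17 ± 0.18 on the log2 scale (adjusted p = 0.000219). The remaining measured member of the list, AT3G11630, rose by 1.11 ± 0.24 on the log2 scale (adjusted p = 0.00294). Thus 3 of 3 were called higher, against 18.3% of all probe sets.

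Flavonoids screen ultraviolet light. Among the 5 measured genes of their synthesis 3 were called higher, against 18.3% of all probe sets, and none lower, at a median of 0.84. CHIL (AT5G05270), a chalcone isomerase-like protein that aids the pathway's first steps, had intensities of 81.7, 101 and 91.8 in light-grown seedlings, against 16.1, 2.44 and 7.28 in dark-grown seedlings. UGT78D2 (AT5G17050), a flavonoid glucosyltransferase, stood at 120.0, 97.0 and 107 on the light arrays, against 47.6, 49.0 and 63.0 on the dark arrays, and UGT78D1 (AT1G30530), a flavonol rhamnosyltransferase, stood at 17.9, 43.2 and 40.9 on the light arrays, against 8.15, 2.51 and 3.53 on the dark arrays. The 3 genes rose without overlap, by 2.16, 0.84 and 1.24, with adjusted p-values of 3.66e-05, 0.00115 and 0.00138. DFR, which opens the branch to anthocyanins, had 0.41 (adjusted p = 0.343), and UF3GT had 0.30 (adjusted p = 0.52).

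Both measured genes of the added starch list, which turn transitory starch over, were called higher, as were 18.3% of all probe sets. DPE1 (AT5G64860), the disproportionating enzyme of maltotriose, had intensities of 227, 237 and 218 in light-grown seedlings, against 38.9, 52.3 and 73.2 in dark-grown seedlings. PWD (AT5G26570), phosphoglucan water dikinase, which loosens the granule surface, stood at 392, 430.4 and 466 on the light arrays, against 127, 162 and 194 on the dark arrays. They rose without overlap by 1.81 ± 0.20 on the log2 scale (adjusted p = 1.75e-05) and by 1.35 ± 0.18 on the log2 scale (adjusted p = 7.34e-05). The branching enzyme gene SBE2.2 had 0.51 (adjusted p = 0.0385), a call that leaving out the first light array (0.41), the second light array (0.46) or the first dark array (0.33) ended. From the same list as SBE2.2, APL3 (0.28, adjusted p = 0.403) and AMY1 (0.007, adjusted p = 0.985) were not called.

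SWEET genes encode sugar efflux carriers of the plasma membrane and tonoplast, and their changes went both ways. In the list of nitrogen assimilation, starch and sugar transport 3 of 19 members were called higher and 5 lower, at a median of -0.04, shares to be read against 18.3% and 16.3% of all probe sets. With hybridization control scaling 5 were higher and 1 lower at a median of 0.40, and without normalization 3 were higher and 2 lower. SWEET3 (AT5G53190) had intensities of 58.9, 48.6 and 39.2 in light-grown seedlings, against 374, 278 and 266 in dark-grown seedlings. SWEET11 (AT3G48740), a sucrose exporter of phloem loading, stood at 1362, 1508 and 1381 on the light arrays, against 4110.3, 3269.9 and 3813 on the dark arrays, and SWEET2 (AT3G14770), a tonoplast carrier, stood at 186, 188 and 217 on the light arrays, against 565, 359.7 and 419 on the dark arrays. All 3 were lower on every light array, by 2.31 ± 0.19 on the log2 scale (adjusted p = 1.75e-06) for SWEET3, 1.38 ± 0.18 on the log2 scale (adjusted p = 8.10e-05) for SWEET11 and 1.101 ± 0.20 on the log2 scale (adjusted p = 0.000933) for SWEET2. SWEET11 and SWEET2 were not called with hybridization control scaling, and SWEET2 was not called without normalization. SWEET16 (-0.81) and SWEET13 (-0.57) were also called lower, but neither was under those scalings, and SWEET16 lay at 0.12 when scaled to hybridization controls. SWEET1 (AT1G21460) stood at 424, 446 and 369 on the light arrays, against 219, 311 and 249 on the dark arrays, and SWEET14 (AT4G25010) stood at 24.9, 18.1 and 19.0 on the light arrays, against 11.9, 6.17 and 3.57 on the dark arrays. They were called higher by 0.65 and 0.67, and SWEET1 lost its call without the second light array (0.59) or the first dark array (0.54).

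Auxin drives the elongation of the dark-grown hypocotyl, and its early response genes were lower in light where they were called. Of 12 measured members 7 were called lower and none higher, with a median of -0.78, where 16.3% of all probe sets were lower. With hybridization control scaling, however, 3 were lower and 3 higher at a median of -0.24. IAA20 (AT2G46990), a repressor of the Aux/IAA family, had intensities of 2.56, 2.63 and 2.25 in light-grown seedlings, against 175, 424 and 201 in dark-grown seedlings. IAA29 (AT4G32280), another Aux/IAA repressor, stood at 33.6, 35.7 and 32.8 on the light arrays, against 124, 195 and 133 on the dark arrays. WES1 (AT4G27260), which the gene table also names GH3.5 and which joins auxin to amino acids, stood at 135, 126 and 115 on the light arrays, against 735, 718 and 955 on the dark arrays. The light arrays lay below the dark arrays for all 3 genes, and IAA20 was dim in light. They fell by 3.83 ± 0.33 on the log2 scale (adjusted p = 2.89e-06), by 1.71 ± 0.20 on the log2 scale (adjusted p = 2.86e-05) and by 2.53 ± 0.17 on the log2 scale (adjusted p = 4.62e-07). The auxin-conjugating GH3.3 and GH3.17 were lower, at -1.42 and -1.33, and IAA34 and IAA30 at -1.04 and -0.52. IAA31 had 0.35 (adjusted p = 0.309), GH3.9 0.26, GH3.1 -0.17, IAA33 -0.17 and IAA18 -0.32, and none of these was called. A list added later holds auxin synthesis genes too, and 7 of its 16 members were called lower and none higher, at a median of -0.25. Its YUC2 (0.25), YUC4 (0.13), YUC6 (-0.15) and YUC11 (-0.09) were not called. YUC2 was called higher without normalization (0.70) and with hybridization control scaling (1.00). Of 2 measured small auxin-up RNAs placed by locus code, AT2G18010 was lower (-1.54 ± 0.26, adjusted p = 0.000571) and AT3G53250 had 0.67 (adjusted p = 0.106).

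Expansins and xyloglucan endotransglucosylase/hydrolases (XTH) loosen and rebuild the growing wall, and single members differed in direction. Of 29 measured members 6 were called higher and 12 lower, at a median of -0.09, where 18.3% of all probe sets were higher and 16.3% lower. Without normalization 10 were higher and 5 lower, at a median of 0.04, and with hybridization control scaling 10 and 4, at a median of 0.18. EXPA4 (AT2G39700) had intensities of 146, 148 and 142 in light-grown seedlings, against 829.6, 732 and 830.5 in dark-grown seedlings. EXPA8 (AT2G40610) stood at 71.2, 91.9 and 71.4 on the light arrays, against 584, 528 and 410.1 on the dark arrays, and XTH19 (AT4G30290) stood at 68.9, 62.0 and 41.9 on the light arrays, against 586, 378 and 322 on the dark arrays. All 3 were bright on the dark arrays and lower on every light array, by 2.33 ± 0.14 on the log2 scale (adjusted p = 2.41e-07) for EXPA4, 2.47 ± 0.18 on the log2 scale (adjusted p = 8.49e-07) for EXPA8 and 2.57 ± 0.26 on the log2 scale (adjusted p = 1.02e-05) for XTH19. XTH18, a close relative of XTH19 whose probes may share signal with it, was lower, at -2.21. XTH32 (AT2G36870) stood at 321, 347 and 431 on the light arrays, against 82.9, 77.6 and 57.8 on the dark arrays. XTH26 (AT4G28850) stood at 18.8, 34.9 and 32.9 on the light arrays, against 1.59, 0.95 and 0.84 on the dark arrays, and XTH16 (AT3G23730) stood at 547, 509 and 449.9 on the light arrays, against 291, 310.1 and 229 on the dark arrays. These 3 lay higher on every light array, by 2.11 ± 0.17 (adjusted p = 2.11e-06) for XTH32, 1.37 ± 0.15 (adjusted p = 1.45e-05) for XTH26 and 0.83 ± 0.14 (adjusted p = 0.000631) for XTH16.

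The direction of other wall families rested on the scaling. Among 51 pectin methylesterase, cellulose synthase-like, GH9 glucanase and TBL acetyltransferase family genes 5 were called higher and 9 lower with quantile normalization, at a median of 0.03, shares below the 18.3% and near the 16.3% of all probe sets. Without normalization 13 were higher and 4 lower, at a median of 0.34, and with hybridization control scaling 29 and 4, at a median of 0.70. ATPMEPCRD (AT2G43050), a pectin methylesterase, had intensities of 130.4, 140.4 and 150.2 in light-grown seedlings, against 3511, 2671 and 3136 in dark-grown seedlings. Its light values lay below all dark values, with a fall of 4.31 ± 0.17 on the log2 scale (adjusted p = 9.11e-09). TBL45 (AT2G30010) stood at 635, 615 and 708 on the light arrays, against 177, 157 and 139.7 on the dark arrays, and TBL38 (AT1G29050) stood at 86.5, 81.3 and 86.8 on the light arrays, against 391, 283 and 329 on the dark arrays. TBL45 was higher (1.95 ± 0.13, adjusted p = 6.08e-07) and TBL38 lower (-1.78 ± 0.17, adjusted p = 5.95e-06). GH9B13 (AT4G02290), an endoglucanase of the GH9 family, was lower (-1.61 ± 0.15, adjusted p = 4.00e-06) and PMEPCRF, another pectin methylesterase, higher (0.68 ± 0.16, adjusted p = 0.00407). TBL25 was higher by 0.69, and without the second (0.63) or the third light array (0.56) it was not called.

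Tubulins form the microtubules that guide cellulose deposition. Of 7 measured tubulin genes 4 were called lower and none higher, at a median of -0.48, where 16.3% of all probe sets were lower. Without normalization 2 were higher and 1 lower, at a median of 0.12, and with hybridization control scaling 3 and 1, at a median of 0.50. TUB1 (AT1G75780) had intensities of 96.0, 81.3 and 101 in light-grown seedlings, against 298, 249 and 257 in dark-grown seedlings. TUA1 (AT1G64740) stood at 209, 194 and 148 on the light arrays, against 464, 419.7 and 464 on the dark arrays. Both were lower on every light array, by 1.38 ± 0.14 on the log2 scale (adjusted p = 7.83e-06) for TUB1 and 1.23 ± 0.18 on the log2 scale (adjusted p = 0.000178) for TUA1, and TUA1 was called neither without normalization nor when scaled to hybridization controls. TUB6 had -0.60 (adjusted p = 0.0164), but 0.35 with hybridization control scaling, and it was not called without the second light array (-0.57) or the third dark array (-0.46). WSD1 (AT5G37300), a wax ester synthase of the cuticle, stood at 13.8, 4.13 and 2.07 on the light arrays, against 92.3, 75.8 and 43.7 on the dark arrays, a fall of 1.93 ± 0.23 on the log2 scale (adjusted p = 3.91e-05).

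Few light signalling and clock genes were measured. FHL (AT5G02200), which carries phytochrome A into the nucleus together with FHY1, had intensities of 37.8, 26.7 and 24.0 in light-grown seedlings, against 154, 165 and 106 in dark-grown seedlings. Every light value lay below every dark value, and FHL fell by 1.78 ± 0.21 on the log2 scale (adjusted p = 2.51e-05). HYH (AT3G17609), a homologue of the light-response transcription factor HY5, stood at 22.2, 37.3 and 26.9 on the light arrays, against 60.8, 79.1 and 37.0 on the dark arrays, and its groups overlapped, with a difference of -0.71 (adjusted p = 0.0616). Without the third dark array HYH was called, at -0.94. GI (AT1G22770), GIGANTEA of the evening clock, stood at 56.0, 52.1 and 71.5 on the light arrays, against 95.3, 80.7 and 85.5 on the dark arrays. GI was lower, at -0.45 ± 0.13 (adjusted p = 0.0168), but lay at 0.01 without normalization and at 0.33 with hybridization control scaling. It lost its call without the first light (-0.42), the second light (-0.37) or the first dark array (-0.39). The gibberellin receptor gene GID1A had -0.29 (adjusted p = 0.183), but was called higher by 0.65 with hybridization control scaling.

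Genes of cell division were higher in light. PRL (AT4G02060), also named MCM7, a subunit of the helicase that opens replication origins, had intensities of 130.3, 147 and 129 in light-grown seedlings, against 37.7, 60.3 and 72.5 in dark-grown seedlings. It did not overlap between groups and rose by 1.08 ± 0.17 on the log2 scale (adjusted p = 0.000351). The Aurora kinases AUR1 and AUR2, which act in mitosis, were higher by 0.76 (adjusted p = 0.0162) and 0.71 (adjusted p = 0.0122). Thus 3 of 3 measured members were called higher, against 18.3% of all probe sets. Without the first light array AUR1 (0.70) and AUR2 (0.59) were not called, and without the third dark array AUR1 (0.58) was not. Of 9 core histone genes in a list added later, of the H2B type or placed by locus code, 7 were called higher and none lower. Their median was 0.88, and 18.3% of all probe sets were higher. HTB2 (AT5G22880) stood at 365, 349 and 318 on the light arrays, against 143, 201 and 158 on the dark arrays, and HTB1 (AT1G07790) stood at 245, 246 and 226 on the light arrays, against 105, 142 and 74.2 on the dark arrays. Both were higher on every light array, by 0.99 ± 0.17 (adjusted p = 0.000707) for HTB2 and 1.09 ± 0.20 (adjusted p = 0.000977) for HTB1. Histone genes of a class are nearly identical in sequence, so their probe sets may share signal. Among these, AT3G53650 was higher by 1.22 ± 0.20 (adjusted p = 0.000378).

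Markers of particular cell types moved with growth condition too. SPCH (AT5G53210), which starts the stomatal lineage, had intensities of 25.3, 83.7 and 56.8 in light-grown seedlings, against 2.77, 10.2 and 3.13 in dark-grown seedlings, a rise of 1.67 ± 0.28 on the log2 scale (adjusted p = 0.000556). The lowest light value lay above the highest dark value, although the dark values were dim. The later stomatal regulators MUTE and FMA (FAMA) were higher by 0.59 (adjusted p = 0.021) and 0.58 (adjusted p = 0.0221). Leaving out the second (0.50) or the third light array (0.46) or the third dark array (0.54) ended the call of MUTE. Leaving out the second (0.49) or the third light array (0.57) or the first dark array (0.50) ended that of FMA. The signal peptide STOMAGEN, made in the mesophyll, had 0.06 (adjusted p = 0.891). Thus 3 of these 4 markers were called higher, against 18.3% of all probe sets. The root hair expansins EXPA7 (AT1G12560) and EXPA18 (AT1G62980) were higher by 0.76 (adjusted p = 0.0137) and 0.62 (adjusted p = 0.0332). EXPA7 was not called without the first light (0.61) or the third dark array (0.62), nor EXPA18 without the first (0.58) or the third light (0.50) or the second (0.51) or the third dark array (0.57). PYK10, a root beta-glucosidase, had 0.10 (adjusted p = 0.738). The part of organ and cell type proportions in the other differences was not tested.

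The 10 genes with the largest rises carry only a locus code in the gene table, as do 11885 of the 13436 probe sets matched to it. AT1G23130 had intensities of 952, 1001 and 662 in light-grown seedlings, against 1.13, 2.29 and 12.4 in dark-grown seedlings. AT3G16670 stood at 1593, 1586 and 1139.7 on the light arrays, against 47.2, 57.7 and 35.3 on the dark arrays, and AT5G38980 stood at 1368, 1269.5 and 1199.6 on the light arrays, against 53.4, 38.4 and 32.3 on the dark arrays. The dark values of AT1G23130 were dim and those of the others low, and all light values were bright. These genes rose by 5.40 ± 0.20 on the log2 scale (adjusted p = 6.07e-09), by 4.53 ± 0.25 on the log2 scale (adjusted p = 1.02e-07) and by 4.51 ± 0.20 on the log2 scale (adjusted p = 1.94e-08). Next in size were AT2G43550 (4.19), AT4G34950 (4.11), AT1G70820 (3.87), AT3G05730 (3.81), AT1G22690 (3.72), AT3G62550 (3.56) and AT1G52510 (3.51).

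The largest falls, beside those of seed reserve genes, included transport and stress genes. OCT1 (AT1G73220), an organic cation and carnitine transporter, had intensities of 0.78, 0.69 and 0.62 in light-grown seedlings, against 433, 399 and 534 in dark-grown seedlings. OSM34 (AT4G11650), an osmotin-like stress protein, stood at 103, 68.3 and 44.6 on the light arrays, against 2599.8, 1743 and 1451 on the dark arrays, and SIS (AT5G02020), a salt-induced serine-rich protein, stood at 107, 113 and 85.0 on the light arrays, against 2671, 2511 and 2149.9 on the dark arrays. Light and dark values lay far apart for all 3, and the falls were 4.81 ± 0.13 on the log2 scale (adjusted p = 3.83e-10) for OCT1, 4.48 ± 0.25 on the log2 scale (adjusted p = 1.12e-07) for OSM34 and 4.39 ± 0.21 on the log2 scale (adjusted p = 3.56e-08) for SIS. AT5G44440 (-5.05), AT2G28780 (-4.80) and AT1G73120 (-4.41) fell as well. BCAT4 (AT3G19710), the aminotransferase that starts chain elongation of methionine for glucosinolates, was on the other side with a rise of 0.72 ± 0.14 on the log2 scale (adjusted p = 0.00179).

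The wild-type light effect was then set beside that of amiR-SNF4, which has its own 3 light and 3 dark arrays. Of 13513 probe sets 1073 (7.94%) had a light effect that differed between amiR-SNF4 and wild type, and 4511 (33.4%) were called between light and dark in amiR-SNF4. Of the 4675 calls in wild type 2804 (60%) were called in the same direction in amiR-SNF4 and 128 (2.74%) in the opposite one. For 703 (15.0%) of the wild-type calls the difference between genotypes was called. The wild-type light effect enters both of these calls, so this share cannot be weighed against the 7.94% of all probe sets. The poly-A controls differed alike in both genotypes, but not every array measure was alike. The 3′ over 5′ ratio of the ubiquitin control was 1.68 to 2.11 on wild-type light arrays, against 1.31 to 1.64 on amiR-SNF4 light arrays. The part of array preparation in the difference between genotypes was not tested. The limma test of this difference was called for 32 of the 105 named genes. Most of these were chosen for a large or called light effect in wild type and some for a small p of this very test, so neither their number nor a smaller effect in amiR-SNF4 is a result about them.

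For the same reason the values that follow describe the genes. OCT1 had a light minus dark difference of -0.17 in amiR-SNF4 and -4.81 in wild type (adjusted p of the difference = 4.57e-08). ATPMEPCRD had -0.37 in amiR-SNF4 and -4.31 in wild type (adjusted p = 2.23e-06). In amiR-SNF4 the intensities of SWEET11 were 1120.1, 1067 and 1008 on the light arrays, against 184, 317 and 313 on the dark arrays. Its wild-type values, given above, were lower in light, whereas in amiR-SNF4 all light values were the higher ones. SWEET11 thus had 1.95 in amiR-SNF4 and -1.38 in wild type (adjusted p = 1.27e-05). GAT1_2.1, a glutamine amidotransferase, had 0.30 in amiR-SNF4 and -3.45 in wild type (adjusted p = 1.08e-06). AT5G16010 stood at 875, 941 and 906 on the light arrays, against 1866, 2293 and 2736 on the dark arrays in amiR-SNF4, and at 962, 1019.6 and 853 on the light arrays, against 228, 203 and 199.7 on the dark arrays in wild type. The order of the growth conditions was thus turned round. AT5G16010 had -1.31 in amiR-SNF4 and 2.08 in wild type (adjusted p = 2.23e-06), and AT5G03350 had 3.77 in amiR-SNF4 and -0.07 in wild type (adjusted p = 1.28e-06). The wild-type value of AT5G03350 was 0.54 with hybridization control scaling. EXPA4, EXPA8, XTH32, XTH26 and XTH16 of the cell wall list and WES1 and IAA29 of the auxin list had effects nearer to 0 in amiR-SNF4. EXPA9 of the cell wall list went the other way, with -1.38 in amiR-SNF4 and -0.54 in wild type (adjusted p = 0.0258). EXPA16 had 2.2003 in amiR-SNF4 and 0.25 in wild type, and the expansin-like genes EXLA2 and EXLB1 had 0.73 and 0.39 in amiR-SNF4 and -0.58 and -0.66 in wild type. In total, 9 of the 29 measured cell wall members had a called difference, against 7.94% of all probe sets.

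Among the photosynthetic lists 2 of 7 Calvin cycle members, 1 of 9 chlorophyll synthesis members and 1 of 3 antenna genes had a called difference between genotypes. Of all probe sets 7.94% had one. PRK had 1.92 in amiR-SNF4 and 0.36 in wild type (adjusted p = 0.0206), and AT1G11860 had 1.61 in amiR-SNF4 and 0.52 in wild type (adjusted p = 0.0434). HEMA2 had -0.80 in amiR-SNF4 and 0.23 in wild type (adjusted p = 0.0187), and LHCB4.3 had 1.69 in amiR-SNF4 and -0.21 in wild type (adjusted p = 5.55e-05). None of these 4 was called between light and dark in wild type. None of the 7 photosystem members had a called difference, which does not show that their effects were equal.

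**Figure D5:**
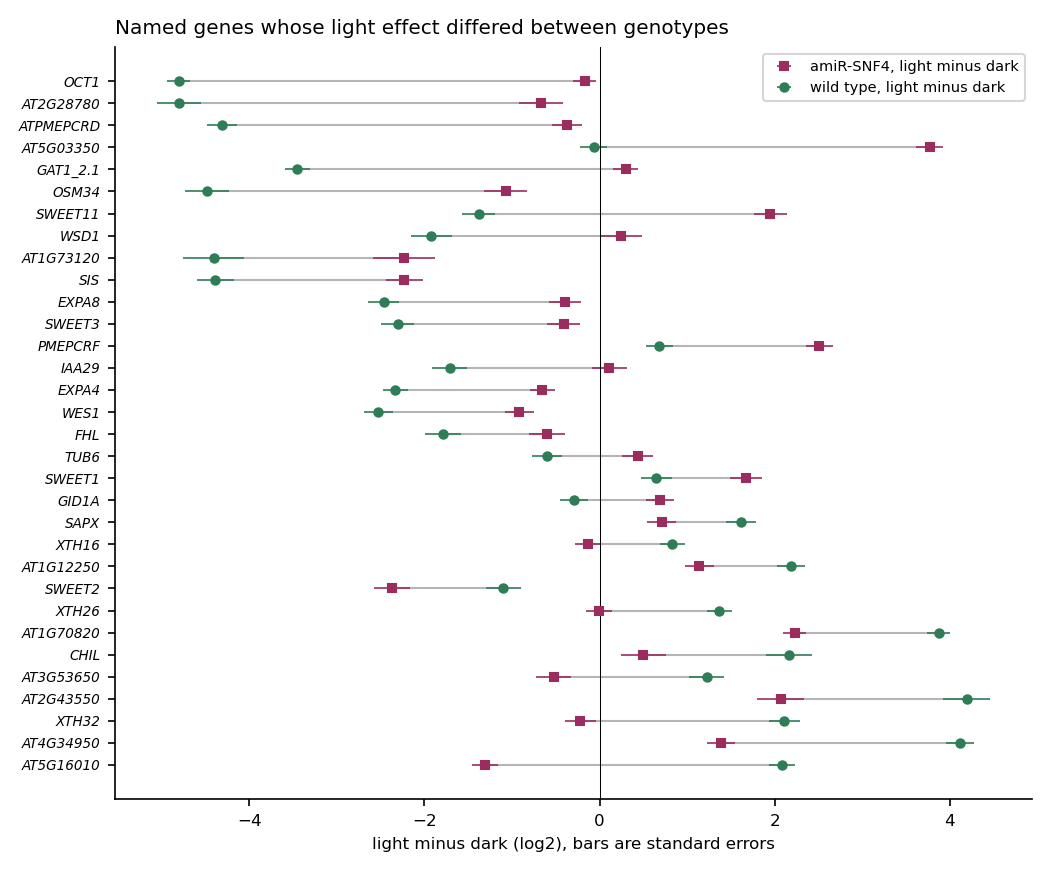
Light minus dark difference (log2, horizontal axis, with standard errors) of the 32 named genes whose light effect differed between genotypes, as squares for amiR-SNF4 and circles for wild type. SWEET11 lies at 1.95 in amiR-SNF4 and at -1.38 in wild type, and most genes shown were chosen for their effect in wild type.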

How the data were processed

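The deposited values are linear intensities, 1 per probe set and array, made with GCOS per the submitters' processing notes. Whether they were scaled is not given in the sources used here. Probe sets were named from the platform annotation, with symbols updated through a TAIR10.1 gene table. Of 22810 probe sets 64 controls were set aside. Array medians differed 2.52-fold, so the rest were quantile-normalized and log2(intensity + 16) was taken. All 12 arrays entered 1 model of 4 group means in limma 3.58.1 (R 4.3.3, lmFit and eBayes), tested two-sided with Benjamini-Hochberg adjustment over 13513 probe sets. The precision is limited by 3 arrays per group. Tested on simulated data of 13513 genes for this comparison, the fit recovered 53% of simulated log2 changes of 2, 23.9% of those of 1 and 1.49% of those of 0.5. These changes were planted in only 66, 67 and 67 probe sets, dim ones included. In the data 34.6% were called, which makes the adjustment of p-values less strict. The recovered shares therefore do not carry over to the data.

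The members, the gene lists and the tests were chosen with earlier results of these data known. Loci of the lists came from general knowledge, and other members entered by family symbol or organelle genome. Of 401 loci in the first 25 lists 63 were measured, and of 235 in 10 lists added later 49. The lists added later held thylakoid and assembly genes, plastid ribosomal proteins, plastid-encoded and mitochondrion-encoded genes, and starch turnover. The others held small auxin-up RNAs, auxin synthesis and response, core histones, other wall families and tubulins. Genes were named as the 10 largest called rises and 10 largest falls without overlap, up to 3 called members of each list in each direction, and the 5 smallest p-values of the difference between genotypes. Where a gene had several probe sets, that with the highest mean was named. Members beyond these were named from the same lists to account for them. Alternatives were other scalings, constants, filters, array weights, a replicate block and arrays left out. Promoter motifs were not analysed here.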

Additional observations from a re-analysis of the deposited data

Results flagged for a closer look

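The poly-A control probe sets, which stand outside the comparison, read 77.98-fold higher on the dark than on the light arrays of wild type. They were 93.9 to 226 on the light arrays and 8298 to 11737 on the dark arrays. The same gap in amiR-SNF4 was 83.35-fold.

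The light effect differed between amiR-SNF4 and wild type for 32 named genes by limma's test of the difference (adjusted p under 0.05, 3 arrays in each of the 4 groups). The values that follow are the light effect in amiR-SNF4 minus that in wild type on the log2 scale. Among genes lower in light in wild type it was 4.64 for OCT1, 4.14 for AT2G28780, 3.94 for ATPMEPCRD, 3.75 for GAT1_2.1, 3.40 for OSM34, 2.17 for AT1G73120 and 2.16 for SIS. In the growth lists it was 2.07 for EXPA8, 1.68 for EXPA4, 1.61 for WES1, 1.82 for IAA29, 1.04 for TUB6, -2.33 for XTH32, -1.38 for XTH26 and -0.97 for XTH16. The carriers had 3.33 for SWEET11, 1.90 for SWEET3, 1.03 for SWEET1 and -1.27 for SWEET2. Among other list members it was 2.17 for WSD1, 1.83 for PMEPCRF, 1.18 for FHL, 0.98 for GID1A, -1.66 for CHIL, -0.91 for SAPX, -1.05 for AT1G12250 and -1.75 for AT3G53650. Among the largest rises it was -2.72 for AT4G34950, -2.13 for AT2G43550 and -1.65 for AT1G70820. It was 3.84 for AT5G03350 and -3.39 for AT5G16010. Beyond these 32, list members named to account for their lists had 1.56 (PRK), 1.09 (AT1G11860), -1.03 (HEMA2), 1.90 (LHCB4.3), -0.84 (EXPA9), 1.95 (EXPA16), 1.31 (EXLA2) and 1.05 (EXLB1). Most of the 32 were chosen for their effect in wild type.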

How the results depend on the processing

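The number of calls was 4675 and ranged from 3772 to 4340 when 1 wild-type array was left out, with 2023 to 2274 higher, 1749 to 2066 lower and 1810 to 1953 changed by at least 2-fold. Leaving out the brightest light and the dimmest dark array together, a setting chosen after the data were seen, gave 3500 calls. With hybridization control scaling 6291 were higher, 436 lower and 3823 of at least 2-fold, and 26 calls turned direction. Without normalization 624 were lower, and with 64 added in place of 16 1017 were at least 2-fold. With 1 added 4119 were called, and with the 6 wild-type arrays fitted alone 4474.

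Replicate numbers of light and dark arrays were not taken as pairs. The correlations of same-numbered arrays were 0.089, 0.048 and 0.20, against -0.156 to 0.097 for arrays of different numbers. With the replicate block 4493 were called.

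Of 105 named genes 79 kept their call and direction under every alternative that included them, as the filter on dim probe sets left some out. With hybridization control scaling direction turned for AT1G80380 (0.45), LYC (0.78), GI (0.33), GID1A (0.65), ccb382 (0.072), AT4G19830 (0.20), TUB6 (0.35) and AT5G03350 (0.54), and without normalization for AT1G80380 (0.070), GI (0.015), LYC (0.41), GID1A (0.29) and AT5G03350 (0.30), the last also without the first light array (0.047). That scaling and that of the deposited values raise all genes by 0.52 and 0.27 in the median. Of the tested probe sets 36.2% had both group means under 32, where a difference is held down by the added 16.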

Other observations

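Gene families read from shared symbol stems gave 30 families with at least 8 measured genes. These were looked through after the values were known, and their counts stand as description. Of 8 autophagy (ATG) genes 5 were called lower in light and none higher, with a median difference of -0.56. Of 14 basic leucine zipper (BZIP) transcription factor genes 7 were lower and none higher (median -0.44), and of 8 aldehyde dehydrogenase (ALDH) genes 4 were lower and none higher (median -0.54). RALF-like peptide (RALFL) genes had 4 of 10 higher and none lower. Among 47 glycosyltransferase (UGT) genes 12 were higher and 13 lower. These counts stand beside 18.3% of all probe sets higher and 16.3% lower. They are from quantile normalization alone, and family counts under other scalings were not made. The median of all probe sets was 0.27 without normalization and 0.52 with hybridization control scaling.

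Of 146 genes read by several probe sets, 20 had all of them called one way, 44 had some called and 81 had none. For 1 gene, AT3G09470, probe sets were called in opposite directions.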
